A study of Canis lupus familiaris with 25 samples.

Results

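The Wnt genes measured in canine perianal tumors were 55 of the 24532 genes of the deposited count table. They were taken by name, as every row named as a WNT ligand, an FZD receptor, an SFRP or DKK gene, an RSPO ligand or an LGR4, LGR5 or LGR6 receptor, together with LRP5, LRP6, AXIN1, AXIN2, APC, CTNNB1, TCF7, TCF7L1, TCF7L2, LEF1, WIF1, RNF43, ZNRF3, NKD1 and NOTUM. The name rule was set with earlier results of these data known. RNA from 25 formalin-fixed, paraffin-embedded (FFPE) tumor samples of dogs was measured by QuantSeq, a 3′ method that takes 1 read per transcript near its polyadenylated end. Of these, 10 were hepatoid gland adenomas (HGA), benign tumors of the perianal glands, and 11 were primary tumors of the malignant apocrine gland anal sac adenocarcinoma (AGASAC). The last 4 were sublumbal lymph node metastases, each numbered 1 to 4 like the AGASAC primary tumor of the same dog. The labels name no genotype or treatment. The dogs were 8 to 14 years old in HGA, 8 to 12.5 years in primary AGASAC and 8 to 10 years in the metastases, and sex moved with tumor type, as 4 of the 10 HGA and 0 of the 11 AGASAC primary tumors came from intact males.

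Wnt ligands are secreted proteins that bind Frizzled receptors together with the co-receptors LRP5 and LRP6. In the canonical branch this stops a cytoplasmic complex of APC, AXIN and kinases from destroying beta-catenin, which then enters the nucleus and switches on target genes with TCF/LEF factors. Secreted antagonists (SFRPs, WIF1 and DKKs such as DKK1) hold the ligands or the co-receptors back. R-spondins and their LGR receptors raise receptor levels by removing the ubiquitin ligases RNF43 and ZNRF3. AXIN2, NKD1 and NOTUM are feedback inhibitors that canonical signaling itself induces. A planar cell polarity branch uses the same receptors without beta-catenin. The pathway is known for keeping stem cells and patterning skin appendages, glands and their tumors.

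Levels are given in CPM, the counts scaled to a common library size with TMM factors over all 25 samples. Library totals over all genes were 1562347 to 6389555 counts in HGA, 2581453 to 4218340 in primary AGASAC and 2857541 to 3289546 in the metastases. A count of 0 in a library allowed a level of up to 0.543 to 1.84 CPM, the value of 3 counts there, which covers counting error only. The summed level of 5 luminal gland genes was 3556 to 6221 CPM in primary AGASAC and 409 to 731 CPM in HGA. That of 6 basal and squamous genes was 3200 to 12820 CPM in HGA and 62.9 to 218 CPM in primary AGASAC. These marker lists were chosen with earlier results of these data known, so the sums describe the samples and test nothing. The 8 lymphocyte genes summed to 91.1 to 107 CPM in the metastases and to 33.3 to 181 CPM in the primary tumors, and were higher in the metastasis than in the primary tumor of the same dog in 4 of 4 dogs. HGA 10 stood apart from the other HGA in several Wnt genes. It was the only HGA of its RNA extraction batch and the only one under the second of the file naming patterns of the sequencing run. The first pattern held 9 HGA, 3 primary AGASAC and the 4 metastases. The second held 1 HGA and 7 primary AGASAC, with 1 primary AGASAC not placed. Between HGA and primary AGASAC the naming pattern thus largely moved with tumor type. What goes with it cannot be fully told apart from tumor type there.

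**Figure D1:**
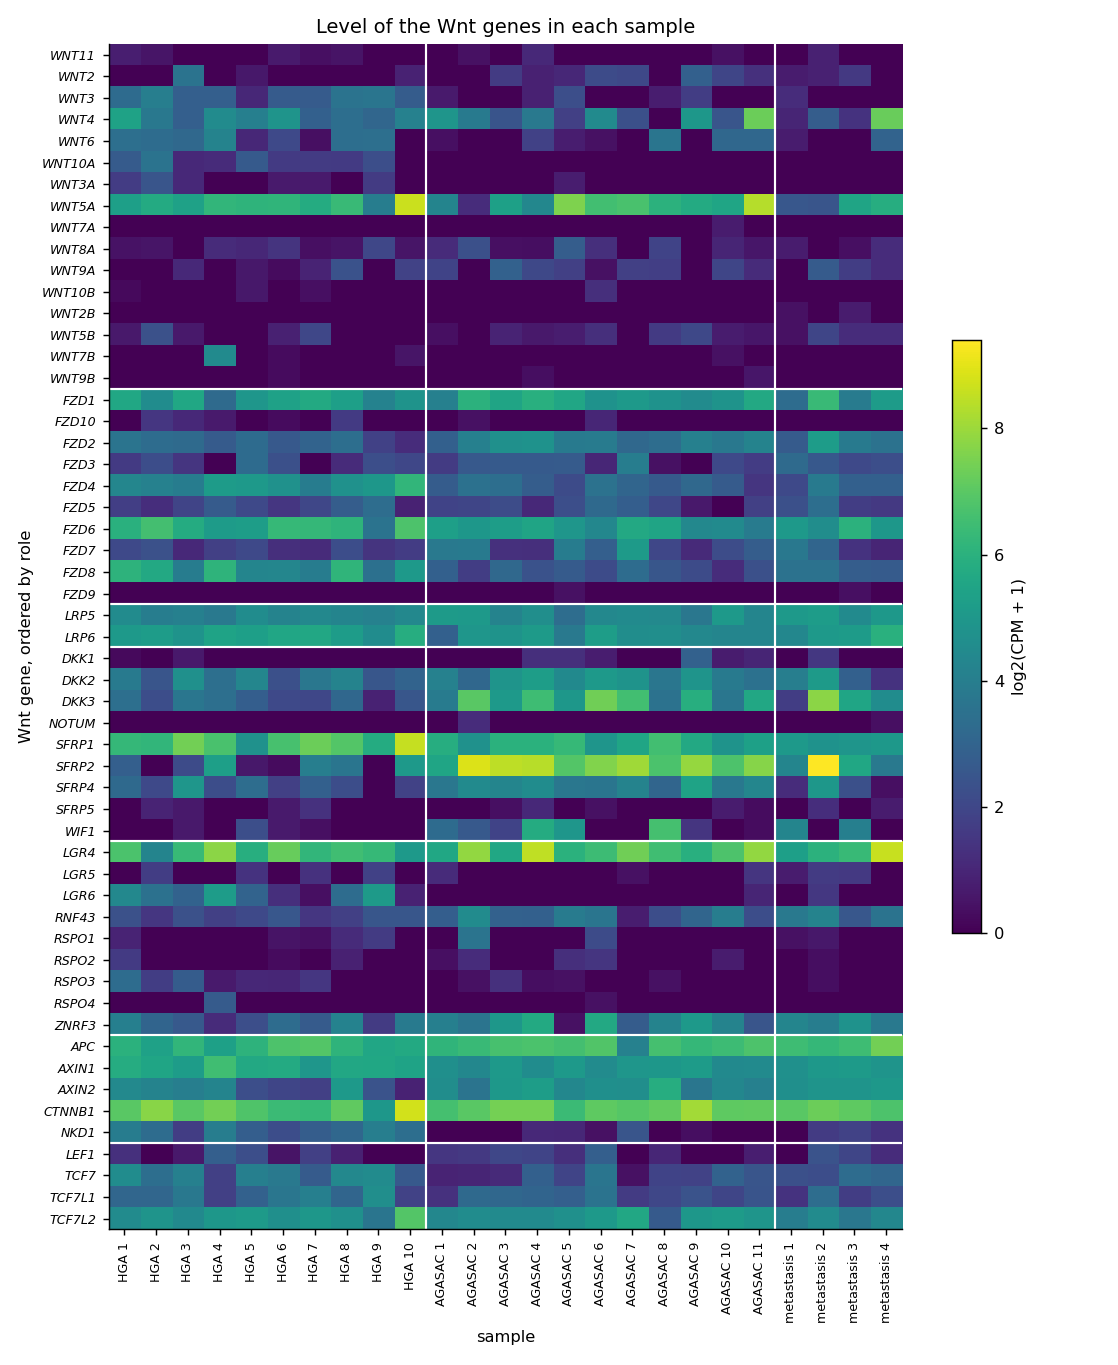
Level of the 55 Wnt genes (rows, ordered by role, with white lines between roles) in the 25 samples (columns, with white lines between HGA, AGASAC primary tumors and metastases), as log2(CPM + 1). Most ligand and R-spondin rows are dark in all samples, HGA 10 is bright for WNT5A, SFRP1, CTNNB1 and TCF7L2, and the SFRP2 row is dark in HGA and bright in primary AGASAC.

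The first comparison asked which Wnt genes differed between the tumor types, HGA versus AGASAC. Between the 10 HGA and the 11 AGASAC primary tumors, 5 Wnt genes were up in HGA, namely the ligand WNT3, the receptors FZD4 and FZD8, the antagonist SFRP1 and the transcription factor TCF7. The antagonist SFRP2 and the Dickkopf family member DKK3 were down in HGA. A gene was called when its p in edgeR's quasi-likelihood test, adjusted by Benjamini-Yekutieli, did not exceed 0.05 and its log2FC, HGA relative to AGASAC, was at least 1 or at most −1. Of the 55 genes, 25 passed the filter on low counts and 30 did not. The 7 calls were 28% of the 25 genes tested, beside 25.1% of all 12070 genes tested (12.6% up and 12.5% down), so in this setting the share called was near that of the whole table. At an unadjusted p under 0.05 there were 17 Wnt genes (68%), beside 53.7% of all genes. With Benjamini-Hochberg adjustment 12 of the 25 Wnt genes were called, beside 30.9% of all genes, and with DESeq2 14 of 42, beside 26.2%. In both settings the Wnt share lay above that of all genes, and this difference was not tested. The median log2FC of the 25 genes was −0.17, beside −0.03 over all genes tested, with 12 genes above 0 and 13 below. With library size alone in place of TMM the median of all genes moved to −0.33, and the Wnt calls were 3 up and 4 down in place of 5 up and 2 down. In such bulk samples, fewer cells of a type and less RNA per cell cannot be told apart.

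Of the 16 ligands, 3 were tested and 1 was called. WNT3, a ligand of the canonical branch, measured 1.08 CPM at the lowest in HGA, 6.21 CPM at the median and 15.4 CPM at the highest. In primary AGASAC it was at 0 at the lowest and the median and at 3.82 CPM at the highest, in AGASAC 5. Of the 10 HGA, 9 lay above every primary AGASAC, and HGA 5 was the exception. The mean was 7.67 ± 4.05 CPM (SD, n = 10) against 0.747 ± 1.23 CPM (SD, n = 11), a log2FC of 3.33 ± 0.67 (SE, edgeR, adjusted p = 0.00253) or 10.1-fold. Only its level in HGA carried WNT3 over the filter, apart from that in AGASAC 5, and without AGASAC 5 it did not pass and had no value. Within RNA extraction batches 5, 6 and 8, each with at least 2 tumors of each type, its log2FC was 3.53, 4.16 and 1.92, with no call. In a fit over these batches with batch as a covariate it was 3.15, also without a call (edgeR, adjusted p = 0.0649).

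WNT5A, the best known ligand of the beta-catenin-independent branch, spread widely in both types and was not called. It ran from 14.8 CPM in HGA 9 over a median of 61.3 CPM to 401 CPM in HGA 10, and in primary AGASAC from 1.31 CPM in AGASAC 2 over 52.2 CPM to 330 CPM in AGASAC 11. The ranges overlapped almost wholly. Its log2FC was 0.08 ± 0.60 (SE, edgeR, adjusted p = 1), and −0.63 without HGA 10. WNT4, a ligand of glandular and reproductive tissue, had a log2FC of −0.56 ± 0.67 (SE) and 0.45 without AGASAC 11, the library with its highest level at 154 CPM. These genes and the other uncalled genes given with values were chosen after their values were seen.

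The remaining 13 ligands did not pass the filter, among them WNT10A, WNT3A, WNT6 and WNT7B. WNT10A, a ligand of hair follicles and skin glands, had counts in 9 of 10 HGA, with a median of 2.09 CPM and a highest level of 10.8 CPM in HGA 2. No read of it was counted in any of the 15 AGASAC samples, primary tumors and metastases alike. Its mean of 3.41 ± 3.17 CPM (SD, n = 10) in HGA was at least 3.64-fold higher than in AGASAC, taking 3 counts per library as the level that a count of 0 allows. HGA 10 was the HGA without a count of it. WNT3A, a strong canonical ligand, had counts in 6 of 10 HGA, 1 of 11 primary AGASAC and 0 of 4 metastases, and reached 4.52 CPM. WNT6 had a median of 8.51 CPM in HGA and of 0.345 CPM in primary AGASAC, with ranges that overlapped. A fit without any filter on low counts called WNT10A (adjusted p = 0.00081), not WNT3A (adjusted p = 0.0818); that fit called 16.2% of all genes.

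Of the 10 Frizzled receptors, 5 were tested, and FZD4 and FZD8 were called, both up in HGA. FZD8, a receptor for canonical Wnts, was lowest in HGA 9 at 10.2 CPM, had a median of 25.6 CPM and reached 69.8 CPM in HGA 8. In primary AGASAC it ran from 1.31 CPM over a median of 4.17 CPM to 9.09 CPM. The groups did not overlap. The means were 36.3 ± 24.8 CPM (SD, n = 10) and 4.75 ± 2.34 CPM (SD, n = 11), and the log2FC was 2.96 ± 0.39 (SE, edgeR, adjusted p = 1.44e-05), or 7.78-fold. The HGA themselves were spread, as HGA 1, 4 and 8 lay at 66.2 CPM or more and HGA 3, 5, 6, 7 and 9 at 19.0 CPM or less.

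FZD4, the receptor of Norrin as well as of Wnts and known for its part in vessel growth, ran from 14.3 CPM over 26.1 CPM to 72.7 CPM in HGA and from 1.70 CPM over 5.84 CPM to 10.7 CPM in primary AGASAC. These groups did not overlap either. The log2FC was 2.12 ± 0.32 (SE, edgeR, adjusted p = 8.58e-05), or 4.36-fold, and 1.86 without HGA 10, its highest library. Genes without overlap between the groups were 3 of the 25 Wnt genes tested, these 2 and SFRP2, beside 9.13% of all genes tested (4.37% up and 4.76% down in HGA). The 6 endothelial marker genes summed to 208 to 568 CPM in HGA and 51.6 to 240 CPM in primary AGASAC, and 1 of the 5 that were tested was called up in HGA; their part in the FZD4 difference was not tested. Within batches 5, 6 and 8 the log2FC was 2.87, 3.57 and 1.85 for FZD8 and 1.88, 1.5 and 1.65 for FZD4, and neither was called within a batch. Among the 9 HGA and 3 primary AGASAC that share a file naming pattern it was 2.74 for FZD8 (edgeR, adjusted p = 0.105) and 1.5 for FZD4 (adjusted p = 0.0925).

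The other Frizzled genes tested were not called. FZD6, which acts in planar cell polarity of the skin, had a log2FC of 1.00 ± 0.29 (SE, edgeR, adjusted p = 0.0684) with 7 of 10 HGA above every primary AGASAC, and passed the thresholds when AGASAC 7, HGA 4 or HGA 9 was left out (log2FC at most 1.13). FZD2, a receptor of WNT5A, had a log2FC of −1.11 ± 0.32 (SE, edgeR, adjusted p = 0.0706) and was called with AGASAC 1 left out, at −1.19. FZD1 had a log2FC of −0.17 ± 0.28 (SE). Of the co-receptors, LRP6 had a log2FC of 0.81 ± 0.24 (SE, edgeR, adjusted p = 0.0703) and LRP5 one of −0.26 ± 0.21 (SE), neither called.

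**Figure D2:**
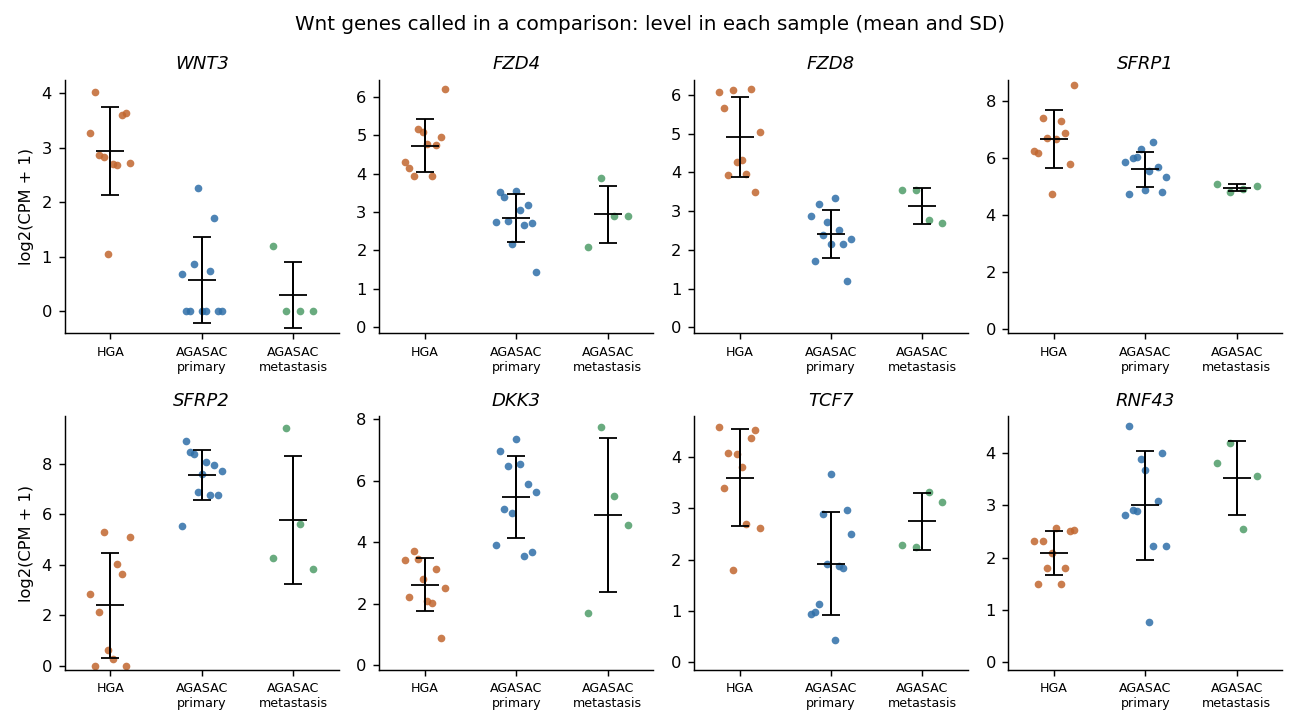
Level of the 8 Wnt genes called in a comparison, as log2(CPM + 1) on the vertical axis, in HGA (n = 10), AGASAC primary tumors (n = 11) and AGASAC metastases (n = 4). Points are samples and bars are the mean ± SD on this scale; FZD4, FZD8 and SFRP2 show no overlap between HGA and primary tumors, and metastasis 2 is the highest metastasis for SFRP2 and DKK3.

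Of the 9 genes classed by family name as secreted antagonists, 5 were tested, 1 was up and 2 were down in HGA. SFRP2, which sequesters Wnts and is abundant in stroma, was at 0 in HGA 2 and HGA 9, at 4.79 CPM at the median and at 38.7 CPM at the highest, in HGA 4. In primary AGASAC it ran from 44.9 CPM in AGASAC 1 over 208 CPM to 482 CPM in AGASAC 2. Every primary tumor was above every HGA. The means were 10.9 ± 14.2 CPM (SD, n = 10) and 224 ± 131 CPM (SD, n = 11), and the log2FC was −4.35 ± 0.74 (SE, edgeR, adjusted p = 0.000368), or 20.4-fold lower in HGA.

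DKK3, a member of the Dickkopf family that is made by stroma and epithelium, ran from 0.848 CPM over 5.33 CPM to 12.0 CPM in HGA and from 10.7 CPM over 49.1 CPM to 163 CPM in primary AGASAC. The groups met at their edges, where HGA 3 at 12.0 CPM lay above AGASAC 8 and AGASAC 10. The log2FC was −3.33 ± 0.51 (SE, edgeR, adjusted p = 0.000101), or 10.1-fold lower in HGA. Within batches 5, 6 and 8 it was −3.32, −4.2 and −4.13 for DKK3 and −4.11, −6.51 and −4.8 for SFRP2, and both were called within batch 6. The 10 fibroblast marker genes, which include neither, summed to 1316 to 5960 CPM in HGA and 1053 to 8276 CPM in primary AGASAC. These sums overlapped, and 0 of the 10 genes were called. Their part in the SFRP2 and DKK3 differences was not tested.

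SFRP1, another Wnt-binding antagonist, went the other way. It ran from 25.9 CPM in HGA 5 over 102 CPM to 375 CPM in HGA 10, and in primary AGASAC from 25.8 CPM over 50.2 CPM to 93.8 CPM. Of the 10 HGA, 6 lay above every primary AGASAC. The log2FC was 1.29 ± 0.34 (SE, edgeR, adjusted p = 0.0341). This call was lost with any 1 of 10 libraries left out (AGASAC 1, 2, 6, 7, 9, 10 and 11 and HGA 3, 7 and 10), with log2FC values of 0.93 to 1.41 over all 21 such fits; without HGA 10 it was 0.93 (edgeR, adjusted p = 0.102). Within batches 5, 6 and 8 it was 0.81, 0.35 and 1.3, and with batch as a covariate over them it was 0.81 (edgeR, adjusted p = 0.331). SFRP4 had a log2FC of −1.39 ± 0.49 (SE, edgeR, adjusted p = 0.234), and −2.0 with a call when HGA 3 was left out; it was also called with batch as a covariate, at −2.21 (adjusted p = 0.0279). DKK2 had a log2FC of −0.86 ± 0.35 (SE, edgeR, adjusted p = 0.458).

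Of the 4 antagonists that did not pass the filter, WIF1, which binds Wnts directly, varied most among AGASAC. It measured 97.2 CPM in AGASAC 8, 54.5 CPM in AGASAC 4 and 29.8 CPM in AGASAC 5, and 0 in AGASAC 6, 7 and 10, with a median of 2.67 CPM. It had counts in 8 of 11 primary tumors and in 4 of 10 HGA, where it reached 3.78 CPM in HGA 5. The fit without a filter called it down in HGA, with a log2FC of −5.20 ± 1.21 (SE, edgeR, adjusted p = 0.0164). NOTUM, an enzyme that inactivates Wnts and a feedback target, was detected in AGASAC 2 and metastasis 4 alone and reached 1.31 CPM. DKK1, the prototype inhibitor of LRP5 and LRP6, reached 6.60 CPM in AGASAC 9 and 0.57 CPM in HGA.

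Of the 9 genes of the R-spondin module, LGR4, RNF43 and ZNRF3 were tested and none was called. RNF43, one of the paired ligases that remove Frizzled receptors from the membrane, ran from 1.81 CPM over 3.61 CPM to 4.90 CPM in HGA and from 0.699 CPM over 6.52 CPM to 21.9 CPM in primary AGASAC. Of the 11 primary tumors 8 lay above every HGA, and AGASAC 7 lay below all of them. The log2FC was −1.32 ± 0.41 (SE, edgeR, adjusted p = 0.103), and without AGASAC 7 it was −1.45 with a call. ZNRF3, its partner, had a log2FC of −1.38 ± 0.54 (SE, edgeR, adjusted p = 0.389). LGR4 had a log2FC of −0.57 ± 0.40 (SE, edgeR, adjusted p = 1) and ran up to 364 CPM in AGASAC 4 and 217 CPM in HGA 4.

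LGR6, an R-spondin receptor of skin stem cells, had counts in 10 of 10 HGA, from 0.304 CPM in HGA 7 over 8.02 CPM to 35.7 CPM in HGA 4. It had counts in 1 of 11 primary tumors, number 11 with 0.972 CPM, and in 1 of 4 metastases. Of the 10 HGA, 8 lay above every primary AGASAC. The fit without a filter called it up in HGA (edgeR, adjusted p = 3.61e-05), where its log2FC rests on 4 counts in primary AGASAC. RSPO3 had counts in 7 of 10 HGA and 5 of 11 primary AGASAC and reached 9.04 CPM in HGA 1, and was not called in that fit (edgeR, adjusted p = 0.227). LGR5, the intestinal stem cell marker, had at most 10 counts in every library.

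Of the 5 genes of the destruction complex and its feedback, 4 were tested and none was called. CTNNB1, which encodes beta-catenin, had medians of 126 CPM in HGA and 134 CPM in primary AGASAC and a log2FC of 0.09 ± 0.31 (SE, edgeR, adjusted p = 1). Its widest values were both in HGA, with 30.5 CPM in HGA 9 and 433 CPM in HGA 10. APC, the scaffold of the complex, had a log2FC of −0.34 ± 0.25 (SE, edgeR, adjusted p = 1) and was lowest in AGASAC 7 at 16.4 CPM, against 70.8 CPM or more in the other primary tumors. AXIN1, the limiting scaffold, ran from 29.4 CPM over 48.6 CPM to 89.8 CPM in HGA and from 19.6 CPM over 24.7 CPM to 34.4 CPM in primary AGASAC. Of the 10 HGA, 9 lay above every primary tumor, and its log2FC of 0.94 ± 0.18 (SE, edgeR, adjusted p = 0.00154) passed the p threshold but not that of size, which it passed with HGA 7 left out at 1.01.

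AXIN2, the most widely used readout of canonical signaling, fell into separate clusters among the HGA. It measured 20.6, 17.6, 15.4, 17.8 and 33.3 CPM in HGA 1, 2, 3, 4 and 8, and 3.8, 2.9, 2.4, 4.2 and 0.9 CPM in HGA 5, 6, 7, 9 and 10. Libraries of both levels lay in extraction batches 5 and 6. HGA 6 and HGA 7 of batch 8 and HGA 10 of batch 9 were low, and HGA 3 of batch 7 was high. The clusters were named after the values were seen, and the part of the batch in them was not tested. In primary AGASAC it ran from 11.1 CPM over 23.5 CPM to 56.6 CPM, so 5 HGA lay below every primary tumor. The log2FC was −1.03 ± 0.47 (SE, edgeR, adjusted p = 0.728), and −0.25, −1.07 and −2.72 within batches 5, 6 and 8.

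NKD1, a feedback inhibitor that binds Dishevelled, ran from 2.28 CPM in HGA 3 over 8.42 CPM to 15.3 CPM in HGA 9, and had counts in 5 of 11 primary AGASAC, where it reached 4.54 CPM in AGASAC 7. Of the 10 HGA, 8 lay above every primary AGASAC, among them HGA 9 and HGA 10, with low AXIN2, at 15.3 and 9.46 CPM. It did not pass the filter with all 21 tumors, and the fit without a filter called it up in HGA with a log2FC of 3.66 ± 0.76 (SE, edgeR, adjusted p = 0.00485).

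**Figure D3:**
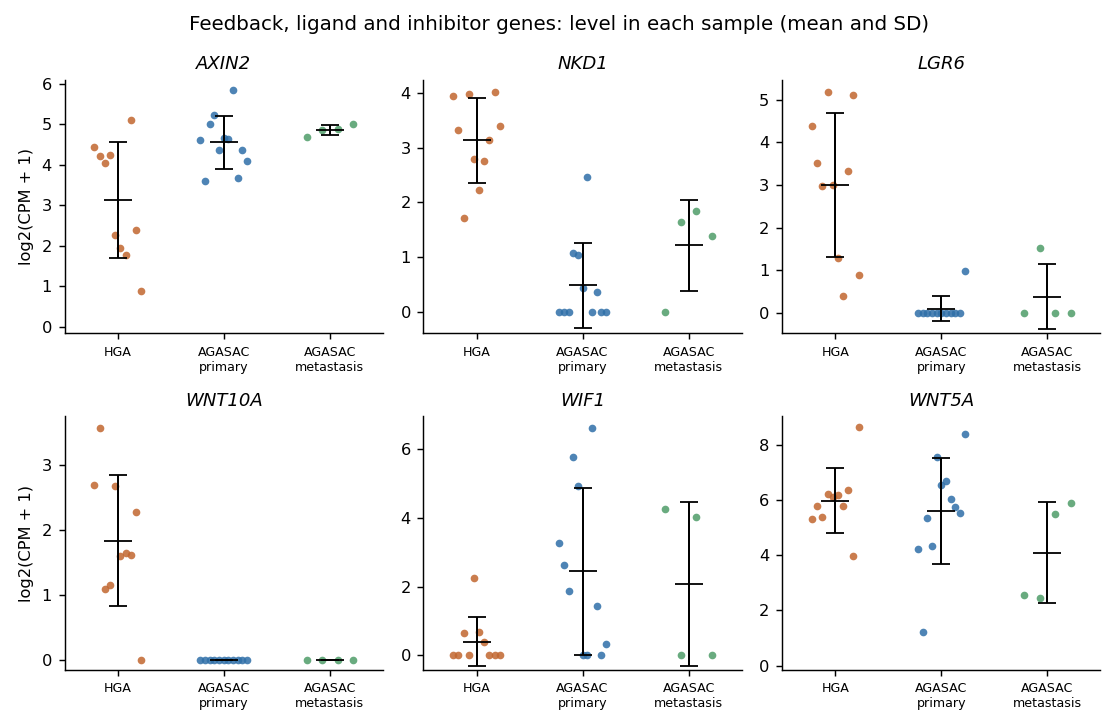
Level of AXIN2, NKD1, LGR6, WNT10A, WIF1 and WNT5A, as log2(CPM + 1) on the vertical axis, in HGA (n = 10), AGASAC primary tumors (n = 11) and AGASAC metastases (n = 4), chosen after their values were seen. Points are samples and bars are the mean ± SD on this scale; AXIN2 in HGA falls into 5 libraries at or above 15.4 CPM and 5 at or below 4.2 CPM, and WNT10A lies at 0 in all AGASAC.

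Relations of AXIN2 with other feedback genes were computed within a tumor type for the genes that had passed the filter, RNF43 and ZNRF3. Over the 11 AGASAC primary tumors, log2(CPM + 1) of AXIN2 and RNF43 gave r = −0.40 by Pearson (permutation p = 0.221, adjusted p = 0.529) and rho = −0.43 by Spearman (permutation p = 0.193, adjusted p = 0.35). For ZNRF3 r was 0.27 (permutation p = 0.417, adjusted p = 0.556) and rho was 0.45 (permutation p = 0.165, adjusted p = 0.35). Without AGASAC 8 and AGASAC 4, the farthest from the AXIN2 median, r was −0.35 and 0.13. The p values were two-sided and adjusted by Benjamini-Hochberg over the 4 relations of both tumor types. Of the 4 relations 0 passed. The 2 in HGA were computed over all 10 samples and count in the adjustment, but as AXIN2 fell into clusters of 5 there, no coefficient pooled over them is given.

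Of the 4 TCF/LEF factors, 3 were tested and TCF7 was called up in HGA. TCF7, the factor first known from T cells, ran from 2.46 CPM in HGA 4 over 14.4 CPM to 23.0 CPM in HGA 1, and in primary AGASAC from 0.35 CPM over 2.68 CPM to 11.7 CPM in AGASAC 6. Of the 10 HGA, 6 lay above every primary tumor. The log2FC was 1.84 ± 0.49 (SE, edgeR, adjusted p = 0.0326), and the call was lost with any 1 of 12 libraries left out (AGASAC 1, 2, 3, 5, 8 and 9 and HGA 1, 3, 5, 6, 8 and 9), with log2FC values of 1.72 to 2.18 and adjusted p values of up to 0.0777 over the 21 fits. Within batches 6 and 8 it was 0.86 and 2.58, and TCF7 was not tested within batch 5. The 8 lymphocyte marker genes summed to 13.5 to 135 CPM in HGA and 33.3 to 181 CPM in primary AGASAC, and 0 of the 3 that were tested were called. TCF7L1 had a log2FC of 0.91 ± 0.40 (SE, edgeR, adjusted p = 0.615), and TCF7L2, the main partner of beta-catenin in gut, one of 0.41 ± 0.34 (SE) that was −0.05 without HGA 10, where it measured 118 CPM.

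**Figure D4:**
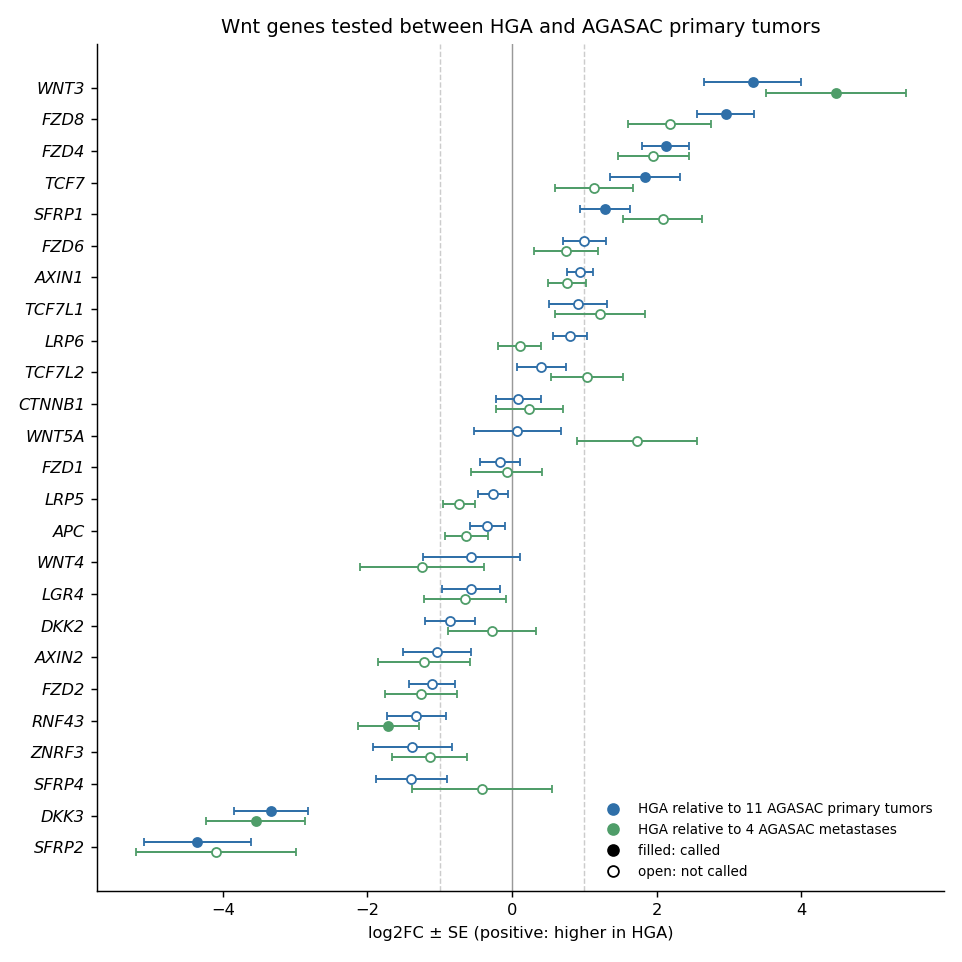
The log2FC ± SE (horizontal axis, positive when higher in HGA) of the 25 Wnt genes tested between HGA and the 11 AGASAC primary tumors (blue) and of the same genes between HGA and the 4 AGASAC metastases (green); both use the same 10 HGA. Filled points were called and dashed lines mark a log2FC of −1 and 1; WNT3 and DKK3 are filled in both.

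A further list of 56 Wnt pathway genes outside the rule held 51 genes of the table, of which 40 were tested, and 13 were called between HGA and primary AGASAC, 6 up and 7 down in HGA. That is 32.5% of those tested, again beside 25.1% of all genes. The list was chosen with earlier results of these data known, so no excess can be read from this share. The median log2FC of the 40 genes was 0.12. FRZB, a secreted Frizzled-related antagonist of the SFRP family, had the largest log2FC in size among the 40 genes tested. It ran from 1.29 CPM over 3.94 CPM to 15.4 CPM in HGA and from 113 CPM over 203 CPM to 286 CPM in primary AGASAC, without overlap, with a log2FC of −5.33 ± 0.35 (SE, edgeR, adjusted p = 2.84e-10) or 40.3-fold lower in HGA. It was called within each of batches 5, 6 and 8, with a log2FC of −4.97, −5.77 and −5.73. The secreted antagonists FRZB and SFRP2 and the Dickkopf family member DKK3 were thus down in HGA, and SFRP1 was up.

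Among target genes of the list, CCND1, which encodes cyclin D1, measured 24.8 to 98.0 CPM in HGA and 121 to 1198 CPM in primary AGASAC, without overlap, and had a log2FC of −3.38 ± 0.37 (SE, edgeR, adjusted p = 9.41e-07). SOX9, a transcription factor of glands and hair follicles, had a median of 69.5 CPM in HGA and of 4.73 CPM in primary AGASAC and a log2FC of 3.48 ± 0.59 (SE, edgeR, adjusted p = 0.000376). These targets, which other pathways also drive, thus differed in opposite directions. In the planar cell polarity branch, PRICKLE1 (log2FC −2.40 ± 0.44, SE) and DAAM1 (−1.97 ± 0.28) were down in HGA and VANGL1 (1.63 ± 0.17), CELSR2 (1.59 ± 0.28) and PRICKLE2 (1.42 ± 0.39) were up. The call of PRICKLE1 was lost with extraction batch as a covariate (log2FC −2.23, edgeR, adjusted p = 0.0553). ROR2, a receptor tyrosine kinase for WNT5A, was down in HGA with a log2FC of −3.02 ± 0.62 (SE, edgeR, adjusted p = 0.00329), from a median of 23.1 CPM in primary AGASAC to 2.14 CPM in HGA. TLE2, a co-repressor that TCF factors recruit, was also down, with a log2FC of −2.51 ± 0.42 (SE, edgeR, adjusted p = 0.000309), whereas TLE3 of the same family was up at 1.09 ± 0.21 (adjusted p = 0.00144).

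The second comparison asked whether the metastases differed from the primary tumors of the same 4 dogs, and no Wnt gene was called. Of the 55 genes 27 were tested. With edgeR 0 of all 12629 genes tested were called (0%), and with DESeq2 5 genes (0.0229%) and 0 Wnt genes. The groups overlapped for all 27 Wnt genes, beside 1.14% of all genes without overlap. At an unadjusted p under 0.05 from edgeR there were 145 genes (1.15%) and 1 Wnt gene, SFRP1. With the dog as block there were 5 Wnt genes, SFRP1 (log2FC −0.72 ± 0.23), TCF7 (1.63 ± 0.57), LRP6 (0.68 ± 0.26), SFRP2 (−2.06 ± 0.82) and SFRP4 (−2.10 ± 0.85), each with an edgeR adjusted p of 1. The share of all genes under that p was not computed with the block, so these 5 cannot be set against the 1.15%. The median log2FC, metastasis relative to primary tumor, was −0.06 over the 27 genes and 0.00194 over all genes. With 4 samples a group, and with the dog left out of the main fit, this comparison could have missed differences. The values of the 3 genes with the smallest p without the block are given dog by dog. Of these, FZD8 had an unadjusted p of 0.213 from edgeR with the dog as block.

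SFRP1 measured 56.4, 25.8, 62.6 and 63.6 CPM in AGASAC primary tumors 1 to 4 and 33.1, 26.8, 28.9 and 31.6 CPM in the metastases of the same dogs. It was lower in the metastasis in 3 of 4 dogs, with a log2FC of −0.80 ± 0.28 (SE, edgeR, adjusted p = 1). TCF7 measured 0.9, 1.0, 1.2 and 6.4 CPM in the primary tumors and 3.9, 3.7, 9.0 and 7.7 CPM in the metastases. It was higher in the metastasis in 4 of 4 dogs, with a log2FC of 1.31 ± 0.72 (SE, edgeR, adjusted p = 1). In dogs 1 and 2 the lymphocyte sum went from 79.9 to 91.8 CPM and from 54.2 to 91.5 CPM. In dogs 3 and 4 it went from 49.2 to 107 CPM and from 77.8 to 91.1 CPM. The sum of 4 lymph node stroma genes was also higher in 4 of 4 metastases. That stroma sum did not mark node tissue alone, since its median was 45.4 CPM in HGA and 11.9 CPM in the metastases. The part of either gene list in the TCF7 values was not tested. FZD8 measured 6.3, 2.3, 8.0 and 4.2 CPM in the primary tumors and 10.7, 10.6, 5.8 and 5.4 CPM in the metastases, higher in 3 of 4 dogs, with a log2FC of 0.64 ± 0.46 (SE, edgeR, adjusted p = 1). The same direction in 4 of 4 dogs was also seen for AXIN1 and LRP6, higher in the metastases, and for TCF7L2, lower. Some of these differences were small, as AXIN1 measured 24.7 and 25.0 CPM in dog 1 and TCF7L2 22.9 and 22.3 CPM in dog 2. The share of all genes with the same direction in 4 of 4 dogs was not computed, so no excess can be read from these genes.

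Further genes are given dog by dog after their values were seen. In dog 4 the primary tumor was in RNA extraction batch 6 and the metastasis in batch 5. That primary tumor was also the one not placed in a naming pattern. In dogs 1, 2 and 3 both samples shared the batch and the pattern. The part of the batch in the dog 4 values was not tested. LGR4 measured 47.0 and 38.9 CPM in dog 1, 235 and 63.9 CPM in dog 2, 48.0 and 80.4 CPM in dog 3, and 364 and 386 CPM in dog 4, primary tumor first. WNT4 went from 29.2 to 0.973 CPM in dog 1, from 13.4 to 5.84 CPM in dog 2, from 4.45 to 1.61 CPM in dog 3 and from 12.8 to 150 CPM in dog 4. SFRP2 in the metastasis was below its primary tumor in dogs 1, 3 and 4, with 44.9 and 18.5 CPM, 355 and 47.9 CPM, and 336 and 13.1 CPM, and was above it in dog 2 with 482 and 674 CPM. The fibroblast marker sum differed in the same direction as SFRP2 and SFRP1 in each dog, from 1053 to 774 CPM in dog 1, from 7034 to 13283 CPM in dog 2, from 7128 to 1417 CPM in dog 3 and from 8276 to 3198 CPM in dog 4. It was highest in metastasis 2, and SFRP2, DKK3, SFRP4, FZD1 and FZD2 had their highest metastasis there; the part of the fibroblast genes in these values was not tested. WIF1 measured 8.7, 5.2, 2.7 and 54.5 CPM in the primary tumors and 18.2, 0, 15.4 and 0 CPM in the metastases.

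**Figure D5:**
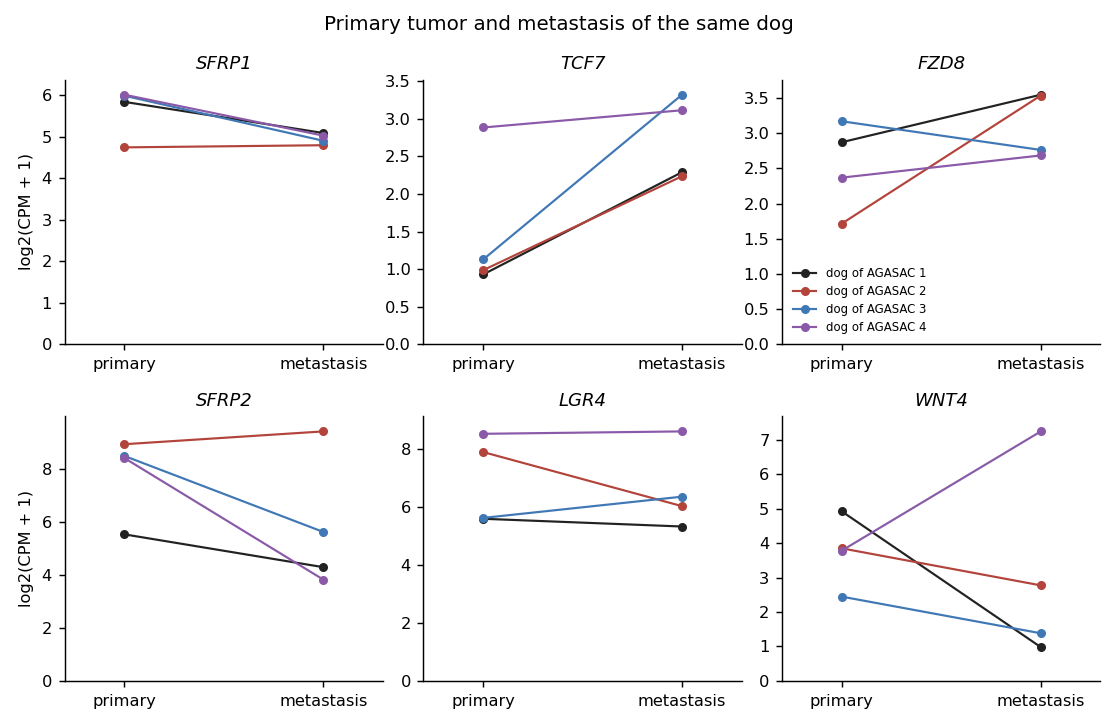
Level of SFRP1, TCF7, FZD8, SFRP2, LGR4 and WNT4 in the primary tumor and the metastasis of the same dog, as log2(CPM + 1) on the vertical axis; each line is 1 of the 4 dogs. TCF7 is higher in the metastasis in 4 of 4 lines, SFRP1 is lower in the metastasis in 3 of 4, and WNT4 is higher in the dog of AGASAC 4 alone.

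The third comparison set the 4 metastases against the same 10 HGA, so it shares the HGA samples with the first and its values stand beside those without being a second line of evidence. Of 30 Wnt genes tested 3 were called (10%), beside 16.1% of all 13195 genes tested (8.4% up and 7.69% down in HGA). Without adjustment, 14 Wnt genes (46.7%) had a p under 0.05, beside 41.2% of all genes. With DESeq2 9 of 38 were called, beside 19.9%, with Benjamini-Hochberg adjustment 9, beside 26.8%, and without a filter on low counts 2 of 54, beside 9.39%. WNT3 was up and DKK3 and RNF43 were down in HGA, and the median log2FC, HGA relative to metastasis, was 0.02 over the Wnt genes and over all genes. WNT3 measured 1.3 CPM (4 counts) in metastasis 1 and 0 in metastases 2, 3 and 4, so it passed the filter only through HGA, where it is high. Its fitted log2FC of 4.48 ± 0.97 (SE, edgeR, adjusted p = 0.0208) rests on those 4 counts and is no measure of the size. Left out in turn, metastases 2, 3 and 4 each took the call away (adjusted p up to 0.0935), and the log2FC ran from 4.07 to 7.52, the last without metastasis 1.

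DKK3 measured 2.27, 214, 44.7 and 22.7 CPM in metastases 1 to 4. Metastasis 1 lay inside the HGA range and the other 3 above it. The log2FC was −3.55 ± 0.69 (SE, edgeR, adjusted p = 0.00883), and −1.93 without metastasis 2 (edgeR, adjusted p = 0.392). RNF43 measured 13.0, 17.2, 4.82 and 10.9 CPM, of which metastasis 3 lay within the HGA range. Its log2FC was −1.71 ± 0.42 (SE, edgeR, adjusted p = 0.0495), and the call was lost with 11 of 14 libraries left out in turn (metastases 1, 2 and 4 and HGA 1 to 8), at adjusted p values of up to 0.4. 

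The genes called in the first comparison had the same sign here, which the shared HGA samples partly fix. FZD4 measured 3.24, 13.8, 6.43 and 6.39 CPM in metastases 1 to 4, all below every HGA, with a log2FC of 1.96 ± 0.50 (SE, edgeR, adjusted p = 0.0635). It was the 1 gene of the 30 without overlap, beside 16.1% of all genes (7.38% up and 8.72% down in HGA), and was called with metastasis 2 or HGA 10 left out. Leaving out HGA 9 gave a call for FZD8, and HGA 5 or HGA 10 for SFRP1. With all libraries FZD8 (2.18 ± 0.58, SE, edgeR, adjusted p = 0.0809), SFRP1 (2.08 ± 0.54, adjusted p = 0.0744) and SFRP2 (−4.10 ± 1.1, adjusted p = 0.093) were not called, and the log2FC of SFRP2 was −1.25 without metastasis 2. NKD1 and LGR6 passed the filter here and were not called (edgeR, adjusted p = 0.154 and 0.163). AXIN2 measured 24.7, 28.1, 28.3 and 31 CPM in the metastases, each above 9 of the 10 HGA, with a log2FC of −1.22 ± 0.64 (SE, edgeR, adjusted p = 1).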

How the data were processed

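The authors trimmed and filtered the reads with Cutadapt, aligned them to CanFam3.1 with STAR and counted them per gene with featureCounts in 2 rounds, the second on genes extended at the 3′ end by 2 kilobases, and split multi-mapped reads evenly over their locations; tool versions and the strand setting are not given in the sources used here. Reads of a neighboring gene inside such an extension, or of a near-identical copy, can therefore count for a gene, and isoforms are not told apart. The deposited values analysed here are raw counts, whole numbers for each gene in each sample. The deposited table also has a normalized signal (the counts over a size factor of the authors), its mean, and the log2 fold change, its error and the p-value of the authors' own comparison; none of these was used. There were 0 unused columns of single samples.

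Counts were tested in R 4.3.3 with edgeR 4.0.16: filterByExpr by group (minimum count 10, minimum total count 15), TMM, the quasi-likelihood test without covariates, and Benjamini-Yekutieli adjustment over all genes tested. The SE was taken as the size of the log2FC over the square root of F. The test was checked on simulated counts. DESeq2 1.42.0 was an alternative. Permutation p values come from 100000 resamples with a pseudocount of 1.

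Groups came from the labels. Extraction batches (5, 6 and 8 hold at least 2 tumors of each type, with 3 HGA and 3 primary AGASAC, 3 and 2, and 2 and 3; batch 7 holds 1 of each and was not fitted alone) and the naming patterns come from the study's sample lists. The labels tie each metastasis to a primary tumor of 1 dog, and the deviations of such pairs from the group means correlated across genes with r of 0.428 to 0.73 in 4 of 4 dogs. No 2 samples of the same group were duplicates, since the chi-square per degree of freedom was at least 12.2. Pairs of samples from different groups were not checked.

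The Wnt genes, the list of further pathway genes and the marker lists were chosen with earlier results of these data known. Values were to be given for all called genes, for the 3 genes with the smallest p where none was called, and for up to 8 called genes of the further list; other genes, CELSR2, PRICKLE2 and TLE3 among them, were named after their values were seen. Genes are named as the table gives them. No annotation of CanFam3.1 was used here, so neither coordinates nor sequences are printed.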

Additional observations from a re-analysis of the deposited data

Results flagged for a closer look

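In groups of 4 or 10 samples, a library was marked when the gap between it and the nearest other library took up more of the group's range than Dixon's 95% critical value allows. Over 32 Wnt genes in the HGA and the metastases, 64 groups were examined and 17 values in 7 libraries were marked. The 11 AGASAC primary tumors were not examined. Dixon's value marks about 1 in 20 groups of normally distributed values. Here it was applied to CPM without a log, and every marked value was the highest of its group. For LGR6 and WNT3 all other metastases were at 0. How many marks chance would give in these data is therefore not known.

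HGA 10 was marked for 5 genes, as the highest HGA in each. It measured 401 CPM of WNT5A against 81.3 CPM in the next library, 118 CPM of TCF7L2 against 33.4 CPM, 433 CPM of CTNNB1 against 212 CPM, 375 CPM of SFRP1 against 167 CPM and 72.7 CPM of FZD4 against 35.0 CPM. Among other HGA, HGA 3 was marked for SFRP4 at 29.7 CPM, HGA 4 for AXIN1 at 89.8 CPM, and HGA 5 for FZD3 at 8.63 CPM and WIF1 at 3.78 CPM.

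Metastasis 4 was marked for 4 genes. It measured 386 CPM of LGR4 against 80.4 CPM in the next metastasis, 150 CPM of WNT4 against 5.84 CPM, 169 CPM of APC against 89.1 CPM and 7.03 CPM of WNT6 against 0.649 CPM. Metastasis 2 was marked for SFRP2 at 674 CPM, SFRP4 at 30.8 CPM and LGR6 at 1.86 CPM, and metastasis 1 for WNT3 at 1.3 CPM, where the other 3 were at 0. No cause of these values was tested.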

How the results depend on the processing

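Between HGA and primary AGASAC the 7 Wnt calls became 14 with DESeq2, 12 with Benjamini-Hochberg adjustment, and 0, 2 and 0 within extraction batches 5, 6 and 8, with 2 or 3 tumors of each type; the 13 calls of further pathway genes became 1, 2 and 2 there. With 1 tumor left out there were 5 to 8 Wnt calls and 12 to 14 further calls. Of all genes, 26.2% were called with DESeq2 and 30.9% with Benjamini-Hochberg. Between HGA and metastases the 3 calls became 9 with DESeq2, 9 with Benjamini-Hochberg (26.8% of all genes), 6 in one fit over all 25 samples, 0 with the replicate number as block over numbers 1 to 4, and 1 to 6 with 1 library left out (1 without metastasis 2 or metastasis 4, 6 without HGA 10); the cause was not tested. The block on numbers 1 to 10 gave 5 Wnt calls and 12 further calls in the first comparison, where same-numbered tumors share only a number (0 of 10 pairs correlated over 0.1). No share of all genes is given for fits within batches, over all 25 samples, with number blocks or with a library left out. The counts of those fits thus cannot be read as particular to the Wnt genes. The dog as block gave 0 Wnt calls between metastases and primary tumors and 1 call over all genes, and 0 AXIN2 relations passed under any of the 4 other settings tried. No tested Wnt gene that was called turned its direction. FZD4, FZD8, DKK3 and SFRP2 kept their calls in all 21 fits that left out a tumor. WNT3 kept its call in 20 of them and did not pass the filter in the fit without AGASAC 5. Its call was also lost with extraction batch as a covariate (log2FC 3.15, edgeR, adjusted p = 0.0649).

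Depth limits the 30 Wnt genes that were not tested, of which 11 had at most 10 counts and 4 at most 3 counts in every library.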

Other observations

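Several Wnt genes that did not pass the filter were carried by 1 or a few libraries, named here after their values were seen. WNT7B, an epithelial ligand, had 35 counts (21.5 CPM) in HGA 4, whereas no other library held more than 1, and the fit without a filter called it on that basis (edgeR, adjusted p = 0.0499). RSPO4, the R-spondin of nail formation, reached 5.53 CPM in HGA 4 and 0.345 CPM in AGASAC 6 and had no counts elsewhere. RSPO1 measured 11.1 CPM in AGASAC 2, 3.45 CPM in AGASAC 6 and 2.12 CPM at most in HGA. WNT2, a stromal ligand, measured 10.8 CPM in HGA 3 and was at 0 in 7 of 10 HGA, while it had counts in 8 of 11 primary AGASAC at up to 6.31 CPM. These values are given without a test.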
